A study of Drosophila melanogaster with 93 samples.

Results

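The regions described here are the H3K9me3 peaks that lie more than 3 kb from every annotated gene body in the euchromatic parts of 2L, 3L and 3R, in each of 31 peak lists. They were chosen by position alone, on dm6 with transposable-element annotations not counted as genes. The ground more than 3 kb from genes is called far intergenic. It excludes the last 400 kb at the distal end of each arm, and it stops at 21500000 on 2L, stops at 22900000 on 3L and starts after 4200000 on 3R. The lists hold 51883 such peaks among 739949 peaks in all, which is 7.01% of all peaks and 10.9% of the 474787 peaks in the same stretches of 2L, 3L and 3R. By arm, 14478 of them were on 2L, 18516 on 3L and 18889 on 3R.

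The lists come from sequential ChIP-seq of *Drosophila melanogaster* chromatin, in which an H3K9me3 antibody was followed by streptavidin purification of a tagged histone H2B. The tag was UAS-Chromatag, driven by *fru P1-Gal4*, which is active in the neurons that express the sex-specific *fruitless* transcripts, or by *elav-Gal4*, a driver for neurons in general, and all flies also carried a UAS-Gal4 transgene in a *w* background. The *fru P1* neurons of both sexes were sampled at 3 stages, 48hr APF, 1 day and 10–12 days of adult life, and the *elav* neurons at 1 day, with 4 libraries in each condition and 3 for 10–12 day *fru P1* females. Each library came from a pool of sex-sorted flies. Whole pupae were used at 48hr APF and heads in adults, so stage and tissue cannot be told apart in comparisons with 48hr APF. The driver is what defines the cells, and a peak list holds no marker level by which this could be checked. Because each value comes from many cells, a mark on fewer cells and less of the mark per cell cannot be told apart.

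H3K9me3 is the histone mark of constitutive heterochromatin, bound by HP1 proteins and laid down by methyltransferases such as Eggless, and in flies it is densest at pericentromeres, on the fourth chromosome and over transposable elements. On the euchromatic arms it is sparse. Long stretches without genes on these arms often surround developmental regulators, whose enhancers can lie many kilobases from the promoter.

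Sequences of 300 bases are shown for 5 places on which the results below turn, with every CG dinucleotide in capitals because base composition went with coverage. All are dm6, plus strand, written 5′ to 3′, and every 50-base word that starts in them occurs once in the assembly. The first 3 are the windows with the highest mean number of libraries covering in their intervals: chr3R:27200268-27200567 between *Ser*, a Notch ligand, and the long non-coding RNA gene *CR34006*; chr2L:11420221-11420520 between *CR43681* and *salm*, a zinc-finger transcription factor; and chr2L:7296672-7296971 between *Wnt4* and *wg*, both Wnt ligands. A peak lay over some of the window in 27, 28 and 29 of 31 libraries, respectively. The fourth, chr2L:17100887-17101186 between *CG12620* and *CR45448*, had a peak in 13 of 23 adult libraries and in 0 of 8 libraries of 48hr APF. The last, chr3L:10739178-10739477 between *NijA*, which encodes a Ninjurin membrane protein, and *CG43245*, had no peak in any library although its GC content was 50.3%, above the 47.0%, 43.7%, 47.7% and 38.7% of the other windows.
Ser-CR34006: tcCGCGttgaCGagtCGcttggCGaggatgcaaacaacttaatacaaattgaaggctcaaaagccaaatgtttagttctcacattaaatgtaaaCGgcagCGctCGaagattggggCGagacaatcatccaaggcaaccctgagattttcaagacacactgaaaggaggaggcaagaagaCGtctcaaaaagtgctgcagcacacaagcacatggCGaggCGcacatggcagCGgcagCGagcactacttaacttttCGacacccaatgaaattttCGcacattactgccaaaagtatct
CR43681-salm: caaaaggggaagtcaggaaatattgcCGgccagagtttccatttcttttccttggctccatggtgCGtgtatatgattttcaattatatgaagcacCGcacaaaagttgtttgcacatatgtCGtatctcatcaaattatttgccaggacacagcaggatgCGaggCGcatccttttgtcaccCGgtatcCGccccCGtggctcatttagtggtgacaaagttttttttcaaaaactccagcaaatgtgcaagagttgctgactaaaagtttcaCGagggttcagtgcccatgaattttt
Wnt4-wg: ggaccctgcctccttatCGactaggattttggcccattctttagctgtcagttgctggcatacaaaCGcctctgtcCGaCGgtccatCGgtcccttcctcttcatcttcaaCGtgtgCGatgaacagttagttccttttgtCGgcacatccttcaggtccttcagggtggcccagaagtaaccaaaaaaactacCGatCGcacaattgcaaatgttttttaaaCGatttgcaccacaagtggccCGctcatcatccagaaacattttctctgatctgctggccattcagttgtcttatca
CG12620-CR45448: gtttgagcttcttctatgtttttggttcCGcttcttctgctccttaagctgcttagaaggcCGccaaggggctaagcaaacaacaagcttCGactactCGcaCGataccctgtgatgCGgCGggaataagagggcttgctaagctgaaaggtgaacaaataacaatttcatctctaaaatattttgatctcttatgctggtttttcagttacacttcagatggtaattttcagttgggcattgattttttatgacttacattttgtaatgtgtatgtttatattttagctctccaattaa
NijA-CG43245: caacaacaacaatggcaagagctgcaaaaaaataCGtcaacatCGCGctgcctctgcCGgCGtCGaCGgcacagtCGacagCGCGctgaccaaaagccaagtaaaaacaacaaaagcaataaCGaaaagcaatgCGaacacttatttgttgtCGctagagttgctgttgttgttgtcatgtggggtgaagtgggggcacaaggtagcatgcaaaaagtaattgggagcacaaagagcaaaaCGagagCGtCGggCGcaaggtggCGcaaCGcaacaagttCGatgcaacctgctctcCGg

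Far intergenic territory made up 961 intervals and 8.65 Mb, 12.2% of the 71.1 Mb considered. The intervals had a median length of 5600 bp, and 747 were at least 2 kb long. A peak wholly inside the interval was present in 820 intervals in at least 1 library and in 199 intervals in all 31 libraries, while 27 of the intervals of at least 2 kb held none in any library. Of the genes next to the intervals, 67.3% were protein-coding and 30.6% were non-coding RNA genes, which make up 19.1% of all annotated genes. Transposable elements took up 8.16% of far intergenic bases and 3.01% of the rest of the arms. The element bodies themselves were almost empty of peaks, with 0.198% to 1.27% of their length covered. The authors kept reads that align once, and of all positions in these elements 9.10% start a 50-base word that occurs once in the assembly, against 98.8% of far intergenic positions outside elements.

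The peaks were weak. The median fold enrichment of far intergenic peaks over the local background ran from 1.45 to 1.73 across libraries, and the highest in any library was 2.77. A −log10 p that corresponds to p of 0.01 or less over the whole peak was reached by 2.81% to 18.3% of them per library. A q of 0.05 or less was reached by 10 of the 51883 peaks, 9 of them in *elav* libraries and 1 in a 1-day *fru P1* female library. These values describe shallow, broad calls. The edges of a peak, and whether it was called at all, therefore depend on small differences in signal. What share of the calls is background was not tested. Even so, the median fold enrichment was higher for far intergenic peaks than for the other peaks of the same arms in 31 of 31 libraries, by a mean of 0.0223 ± 0.00832 (SD, n = 31; two-sided sign-flip permutation test, p = 1e-05, the smallest that 100000 resamples can give).

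Depth ran from 2119672 to 6306013 tags after filtering per library. The *elav* libraries had 2295291 to 3012794 tags and the 1-day *fru P1* libraries 3856798 to 6306013. Males had 1.61% to 9.28% of all peaks on the X and females 16.6% to 18.8%, so the lists of the sexes differ in how peaks are shared between chromosomes. The *elav* male replicate 3 list was called with a fragment length of 140 bp, against 200 bp in the other 30, and had 2323 far intergenic peaks of median width 644 bp, the most and the narrowest of all lists.

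H3K9me3 peaks covered more of the far intergenic territory in 1-day adults than at 48hr APF or at 10–12 days. Covered length counts every base under a peak, including parts of peaks that cross the 3-kb limit. In *fru P1* males, the 4 libraries of 48hr APF had 35.7%, 36.1%, 37.5% and 37.6% of the territory covered, the 1-day libraries 50.02%, 51.2%, 52.2% and 53.5%, and the 10–12 day libraries 30.6%, 31.2%, 31.9% and 32.6%. In *fru P1* females, the values were 30.5%, 31.3%, 32.1% and 32.1% at 48hr APF, 45.6%, 46.9%, 49.6% and 53.2% at 1 day, and 25.1%, 25.6% and 28.6% at 10–12 days. In each sex the 3 stages did not overlap, with 1 day highest and 10–12 days lowest. The *elav* libraries had 39.2%, 42.9%, 46.0% and 48.1% in males and 37.4%, 38.2%, 41.1% and 44.7% in females, below the 1-day *fru P1* libraries of the same sex in every case.

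**Figure D1:**
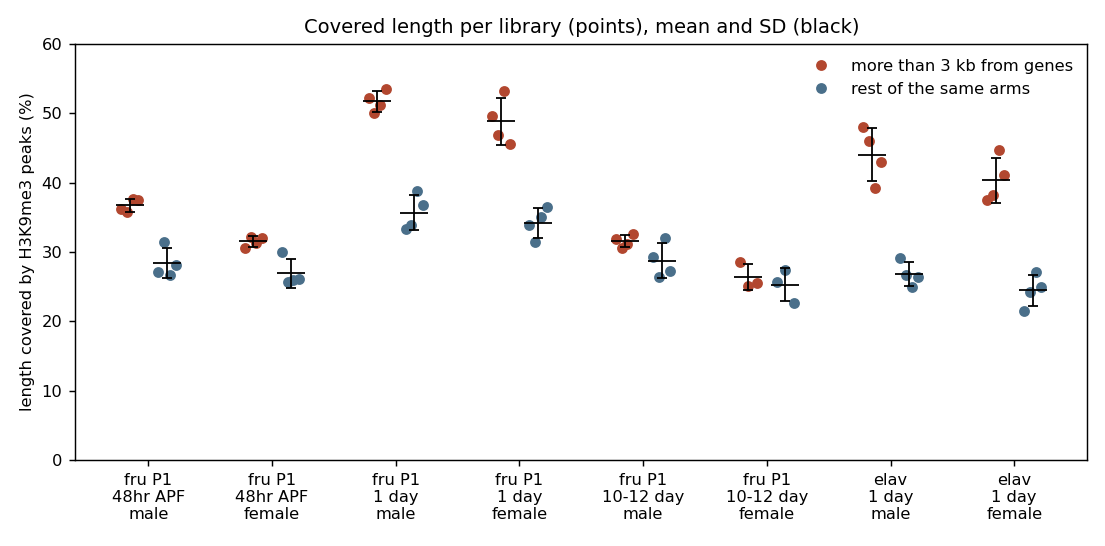
Percent of length covered by H3K9me3 peaks in each library (points), for far intergenic territory (red) and the rest of the same arms (blue), with the mean and SD of the condition in black. The 8 *fru P1* libraries of 1 day lie between 45.6% and 53.5% far from genes, above all other *fru P1* libraries, and the blue points of the same 8 libraries lie between 31.4% and 38.8%.

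In males, covered length rose by 15.0 percentage points from 48hr APF to 1 day (36.7% ± 0.952 to 51.7% ± 1.48, SD, n = 4 each) and fell by 20.2 points from 1 day to 10–12 days (to 31.6% ± 0.852, n = 4), a difference of −5.17 points from 48hr APF. Each of these passed the two-sided exact permutation test (p = 0.0286, the smallest that 4 against 4 libraries allow, adjusted p = 0.0490 over 12 comparisons by the Benjamini-Hochberg method). In females it rose by 17.3 points from 48hr APF to 1 day (31.5% ± 0.748 to 48.8% ± 3.34, n = 4 each, exact permutation test, adjusted p = 0.0490). At 10–12 days it was 22.4 points below 1 day and 5.09 points below 48hr APF in females (26.4% ± 1.90, n = 3), but 3 against 4 libraries cannot give an exact p below 0.0571 with the two-sided rule used (adjusted p = 0.0686 for both). When two-sided p was counted by absolute difference, a choice made after seeing the data, both passed (exact permutation test, p = 0.0286, adjusted p = 0.0343).

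Males had more of the territory covered than females in each of the 4 comparisons. The difference passed the test only at 48hr APF, where it was 5.22 points and the sexes did not overlap (exact permutation test, adjusted p = 0.0490). It was 2.89 points in 1-day *fru P1* neurons (exact permutation test, adjusted p = 0.187) and 3.71 points in *elav* neurons (adjusted p = 0.200), and in both the sexes overlapped. At 10–12 days the difference was 5.14 points, without overlap, and had an adjusted p of 0.0686 in the exact permutation test, or 0.0343 by absolute difference. The rest of the arms was also more covered in males. Taken as far intergenic minus rest, the male excess was 3.78 points at 48hr APF, 1.43 at 1 day, 1.66 at 10–12 days and 1.41 in *elav* neurons. None of these passed adjustment. The share of peaks on the X differs between the sexes in the same libraries, and its part in these differences was not tested.

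Between cell types, *elav* libraries had 7.67 points less of the territory covered than 1-day *fru P1* libraries in males (44.05% ± 3.84 against 51.7% ± 1.48, n = 4 each) and 8.49 points less in females (40.3% ± 3.29 against 48.8% ± 3.34). Both passed the exact permutation test (adjusted p = 0.0490). The *elav* libraries are also shallower, with a median pileup under the far intergenic peaks of 8.65 fragments in males and 9.27 in females against 14.3 and 16.5 in *fru P1* neurons, and they were called against the input of their own replicate rather than a pooled input. The part of depth and input in this difference was not tested.

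The change in covered length went with a change in peak width and less with the number of peaks. Median widths in males were 972 to 1031 bp at 48hr APF, 1217 to 1381.5 bp at 1 day and 880 to 927.5 bp at 10–12 days. In females they were 916 to 950 bp, 1125 to 1229 bp and 842 to 874.5 bp, so again no stage overlapped another within a sex. The condition means in males were 1001 ± 24.2, 1285 ± 78.8 and 907 ± 21.0 bp (SD, n = 4 each), and in females 934 ± 17.5 (n = 4), 1181 ± 54.0 (n = 4) and 858.5 ± 16.3 bp (n = 3). The *elav* libraries had a median width of 960 ± 223 bp in males and 961 ± 51.8 bp in females (SD, n = 4 each). The 7 comparisons that passed for covered length also passed for width (exact permutation test, adjusted p = 0.0490), and with territory more than 5 kb from genes all 7 lost the call (adjusted p = 0.0571 to 0.137). The other peaks of the same arms were also widest at 1 day in *fru P1* neurons, without overlap with the other stages. Their median widths over the 3 stages were 929.5 to 992, 1062 to 1161 and 891 to 969 bp in males. In females they were 909 to 969.5, 1034 to 1124 and 843 to 900 bp.

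The longest far intergenic peak of a library was 5720 to 15935 bp at 48hr APF and 10–12 days and 13954 to 38069 bp at 1 day. The longest of all lay between *vvl*, a POU-domain transcription factor, and *CR45115* in *elav* female replicate 1. The next longest, of 26560 bp, lay beside *salm* in *elav* male replicate 2. Peaks of 5 kb or more numbered 3 to 41 per library at 48hr APF and 10–12 days and 36 to 101 at 1 day, and these ranges overlap.

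**Figure D2:**
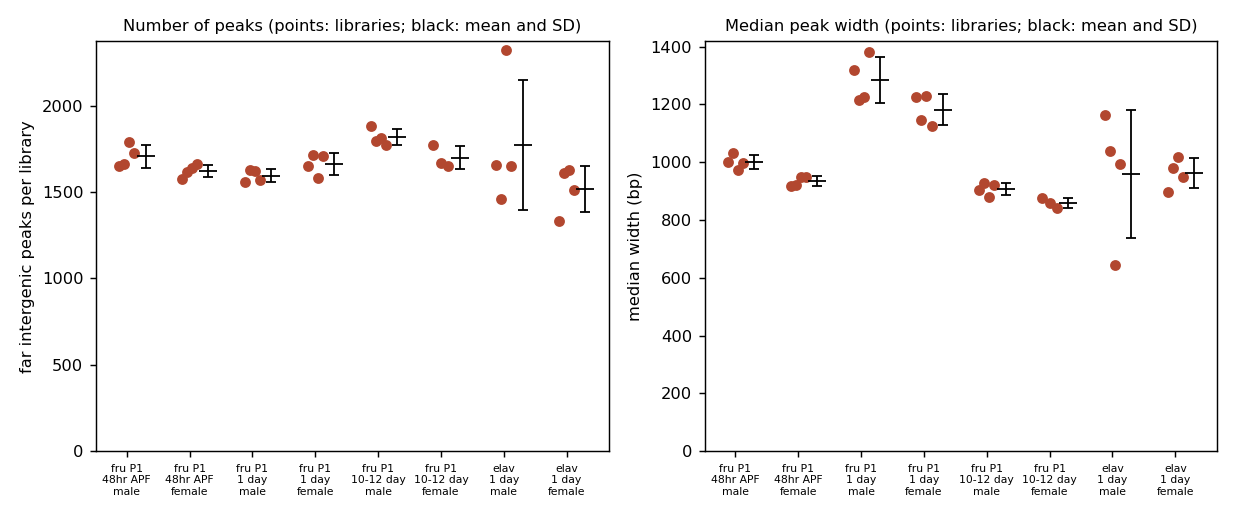
Number (left) and median width in bp (right) of far intergenic peaks in each library (points), with the mean and SD of the condition beside them in black. Within each sex, widths separate the 3 stages of *fru P1* neurons, while the numbers lie between 1561 and 1884 in all *fru P1* libraries, and 1 *elav* male library has 2323 peaks of 644 bp.

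The number of far intergenic peaks passed the test in none of the 12 comparisons (exact permutation test, adjusted p = 0.171 or higher, with 2 comparisons at an unadjusted p of 0.0286). At 48hr APF, males had 1706 ± 65.3 and females 1622.5 ± 36.7, followed by 1596 ± 35.2 and 1663.5 ± 63.9 at 1 day, and 1817.5 ± 47.3 and 1699 ± 65.5 at 10–12 days (SD, n = 4, but 3 for 10–12 day females). The *elav* libraries had 1772 ± 378 in males and 1519 ± 135 in females. In males they had 176.5 more than 1-day *fru P1* libraries, and −7.08 without *elav* male replicate 3. The 1-day males thus had fewer peaks than 48hr APF males while a larger share of the territory was covered, but the direction depends on the peaks kept: with peaks of p of 0.05 or less, 1-day males had 121.5 more, and the difference of 10–12 day from 1-day males was −123.75.

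Far from genes, more of the ground was covered than in the rest of the same arms. The difference within a library was 10.4 points on average (SD 6.63, n = 31) and positive in 29 of 31 libraries (two-sided sign-flip permutation test, p = 1e-05, the smallest possible with 100000 resamples). The test flips each library on its own, although the *fru P1* libraries of a condition share a pooled input and are not independent in that respect. The mean difference was 8.37 and 4.59 points in males and females of 48hr APF, 16.0 and 14.6 in 1-day *fru P1* neurons, 2.83 and 1.18 at 10–12 days, and 17.3 and 15.9 in *elav* neurons. Within one condition the exact sign-flip test cannot go below 0.125 with 4 libraries, and that value was reached in 6 conditions, the 2 exceptions being both sexes at 10–12 days, where 1 library each had the opposite sign. The difference was 12.8 points and positive in 31 of 31 libraries when 1 kb bins without transposable elements were matched on GC content, and 13.0 points, positive in 30 of 31, over positions whose 50-base word occurs once.

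The distance between far intergenic territory and the rest was itself larger at 1 day. From 48hr APF to 1 day it widened by 7.66 points in males and 10.0 points in females, and from 1 day to 10–12 days it narrowed by 13.2 and 13.4 points, with no overlap between the libraries of the stages compared. The rest of the arms moved the same way by less: its covered length was 7.32 points higher at 1 day than at 48hr APF in males and 7.30 points higher in females, and its difference from 1 day to 10–12 days was −6.96 and −8.98 points, again without overlap. These did not pass adjustment (exact permutation test, adjusted p = 0.0686, and 0.114 for 10–12 day females). The comparison of the distance was added after the data were seen, and none of its 12 tests passed adjustment (exact permutation test, adjusted p = 0.114 for the 3 comparisons of 4 against 4 named here and 0.137 for females of 1 day and 10–12 days). Between *elav* and 1-day *fru P1* libraries it changed by 1.25 points in males and 1.28 in females, within the spread of the libraries. In the rest of the arms, *elav* libraries were 8.92 and 9.77 points below the *fru P1* libraries, about as far as in far intergenic territory, without overlap (exact permutation test, adjusted p = 0.0686 for both).

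Within far intergenic territory, ground near transposable elements was covered less. The 585 kb within 2 kb of an element, element bodies left out, had 7.21 points less of its length covered than the 7357 kb farther away, with the same sign in 31 of 31 libraries and a range of −11.6 to −1.92 points (two-sided sign-flip permutation test, p = 1e-05). This difference did not pass between any conditions (exact permutation test, adjusted p = 0.343 or higher, with 1 comparison at an unadjusted p of 0.0286). Peaks may also end at element bodies, where few reads can be placed. The part of read placement and of GC content in the lower coverage near elements was not tested.

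At cutoffs of 16 and 24 libraries, the same bases recurred more often far from genes, but no base there was shared by all lists. A peak lay over 33.4% of far intergenic bases in at least 16 of 31 libraries, against 16.3% of the rest of the arms, and over 3.51% against 1.18% in at least 24. The highest number of libraries over any far intergenic base was 30, whereas 1.66 kb of the rest of the arms (0.00266%) were covered in all 31. The share covered within a library was also higher far from genes in 29 of 31 libraries, and its part in recurrence was not tested. Bases with no peak in any library made up 10.2% of the territory, and 2.45% once transposable elements were left out.

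**Figure D3:**
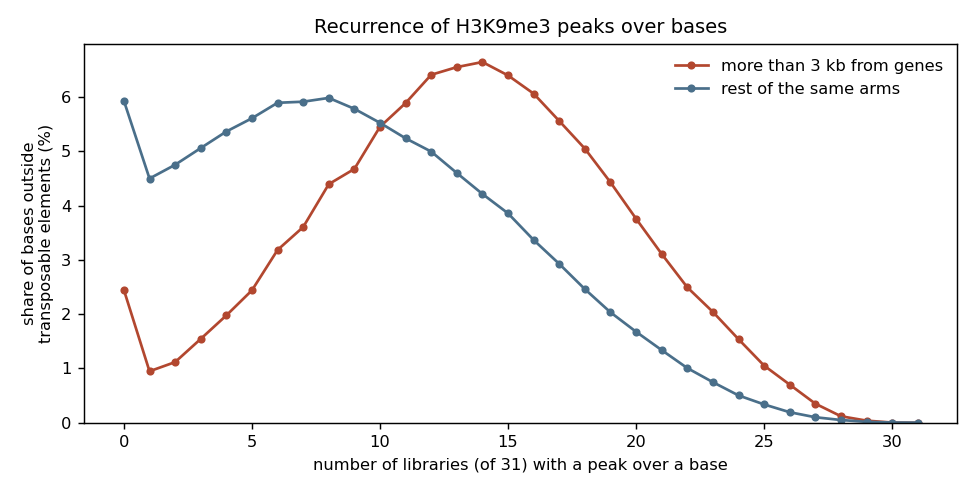
Share of bases outside transposable elements (vertical axis, %) by the number of the 31 libraries with a peak over the base (horizontal axis), for far intergenic territory (red) and the rest of the same arms (blue). The red curve is highest at 14 libraries and the blue curve at 8, and at 0 libraries red is at 2.45% and blue at 5.93%.

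Replicates of a condition overlapped only in part. In males, 5.34% of far intergenic bases were covered in all 4 libraries of 48hr APF, 17.1% in all 4 of 1 day and 2.52% in all 4 of 10–12 days, while 73.2%, 81.8% and 69.7% were covered in at least 1. In females the shares in every library were 3.91%, 16.1% and 3.96%, the last over 3 libraries, and the *elav* libraries had 13.7% in males and 11.9% in females. Most of what one library calls is therefore missing from at least 1 other library of its condition. Over all 16 libraries of 1 day, 153 kb were covered in every one, 1.77% of far intergenic bases against 0.637% of the rest. The 15 libraries of 48hr APF and 10–12 days shared 0.039 kb, 0.000451% of far intergenic bases against 0.00779% of the rest. The second set spans both of these stages and both tissues, so the sets are not alike.

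Bases covered in at least 24 libraries formed 1057 runs with 304 kb in all, in 289 intervals. The longest run, of 3410 bp at chr2L:5370689-5374098, lay between *nompC*, which encodes a mechanotransduction channel, and *CR42850*. The following ones lay between *ftz*, a homeobox gene, and *CR44931* (2607 bp, chr3R:6871692-6874298), between *Ser* and *CR34006* (2467 bp, chr3R:27199966-27202432, which holds the window printed above) and between the Pax genes *toe* and *eyg* (2350 bp, chr3L:12447072-12449421). Further runs of over 2 kb lay beside *zfh1*, *ems*, *bab2* and *croc*, which all encode developmental transcription factors, and beside *laf*.

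Intervals beside developmental regulators had more of their length covered than most. Over the 747 intervals of at least 2 kb, the median of the mean covered length across libraries was 40.8%. For the 60 intervals that flank 52 of the 102 developmental transcription factor genes in these stretches it was 61.2%, from 22.4% beside *elB* to 76.6% between *slp1* and *slp2*. For the 6 intervals beside 7 of 21 secreted developmental signal genes, a list that also holds the Wnt receptor gene *fz*, it was 59.8%. By contrast, it was 35.97% for the 53 intervals beside 45 of 76 neuronal cell-surface and guidance genes and 44.7% for the 15 intervals beside 14 of 45 transmitter receptor and ion channel genes. The intervals beside transcription factors had a median GC content of 42.4%, against 41.3% for all 747. A peak wholly inside the interval was present in all 31 libraries in 12 of the 60 intervals beside transcription factors (20%), a smaller share than the 199 of all 747 (26.6%). The same held for 22 of the 53 beside neuronal cell-surface genes (41.5%), 3 of the 6 beside signal genes and 6 of the 15 beside receptor and channel genes, so the order of the lists differs between these measures. Peaks that cross the 3-kb limit are left out of this count. The interval between *slp1* and *slp2* had a peak wholly inside in 7 libraries, while at least 22.25% of its length was covered in every library. These medians and counts are descriptions, and the lists were not tested.

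Among the transcription factors, the most covered intervals were that between the forkhead genes *slp1* and *slp2* (3740 bp, 76.6%), that beside the homeobox gene *Dr* (15031 bp, 74.1%) and that beside the T-box gene *H15* (9647 bp, 73.4%). Beside *Dr*, coverage was 79.7% to 97.5% in 1-day *fru P1* males and 83.6% to 100% in *elav* males, against 53.8% to 83.4% at 48hr APF and 27.4% to 73.2% at 10–12 days. Among the signals, the 4836 bp between *Wnt6* and *Wnt10* had a mean of 68.0% and the 6678 bp on the other side of *wg* 62.7%. On that side of *wg*, the 16 libraries of 1 day ranged from 57.3% to 100% and the other 15 from 17.98% to 58.3%, with nearly no overlap.

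Of the neuronal genes, the most covered intervals were those beside *robo3* and *robo2*, receptors for Slit, with means of 51.9% and 51.4%, and those beside the immunoglobulin genes *DIP-zeta* and *dpr17*, with 51.1% and 47.6%. The lowest of that list was 0%, beside *dpr20*. Of the receptors and channels, the most covered were *5-HT7*, a serotonin receptor, with 53.1%, *nAChRalpha2*, an acetylcholine receptor subunit, with 49.7%, *Dop1R2*, a dopamine receptor, with 45.6% and *GABA-B-R3* with 45.4%. The lowest there was 0.192%, beside *5-HT2B*. The ranges over libraries were wide, from 0% to 100% for *robo2*, from 14.5% to 100% for *Dop1R2* and from 0% to 97.3% for *GABA-B-R3*. These 3 intervals are short, 2020, 3545 and 4114 bp.

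Of the 199 intervals with a peak wholly inside in every library, the 8 with the highest mean coverage lay beside *Ser* (62.1%), between *CR45287* and *CG14020* (61.6%), beside *salm* (60.1%), between *Wnt4* and *wg* (57.6%), between *Grl65a* and *SP1173* (56.7%), between *CG43098* and *CR43484* (56.4%), beside the Sox gene *D* (54.8%) and between *Aps* and *CR45248* (54.7%). Beside *Ser* (chr3R:27197268-27213303), coverage was 35.1%, 37.7%, 60.1% and 65.3% in males of 48hr APF, 59.8%, 74.2%, 79.9% and 83.5% at 1 day and 37.5%, 50.7%, 54.9% and 60.6% at 10–12 days. Beside *salm* (chr2L:11395321-11431310), it was 26.9%, 29.2%, 43.3% and 43.3%, then 75.6%, 78.0%, 79.8% and 86.2%, then 22.0%, 26.8%, 45.2% and 59.7%. The 1-day males stood clear of both other stages at *salm*, and at *Ser* 1 library of 1 day lay within their range. The *elav* libraries reached 84.5% to 96.3% in males and 74.2% to 94.4% in females at *salm*, where *fru P1* had 75.6% to 86.2% and 62.8% to 76.9%.

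**Figure D4:**
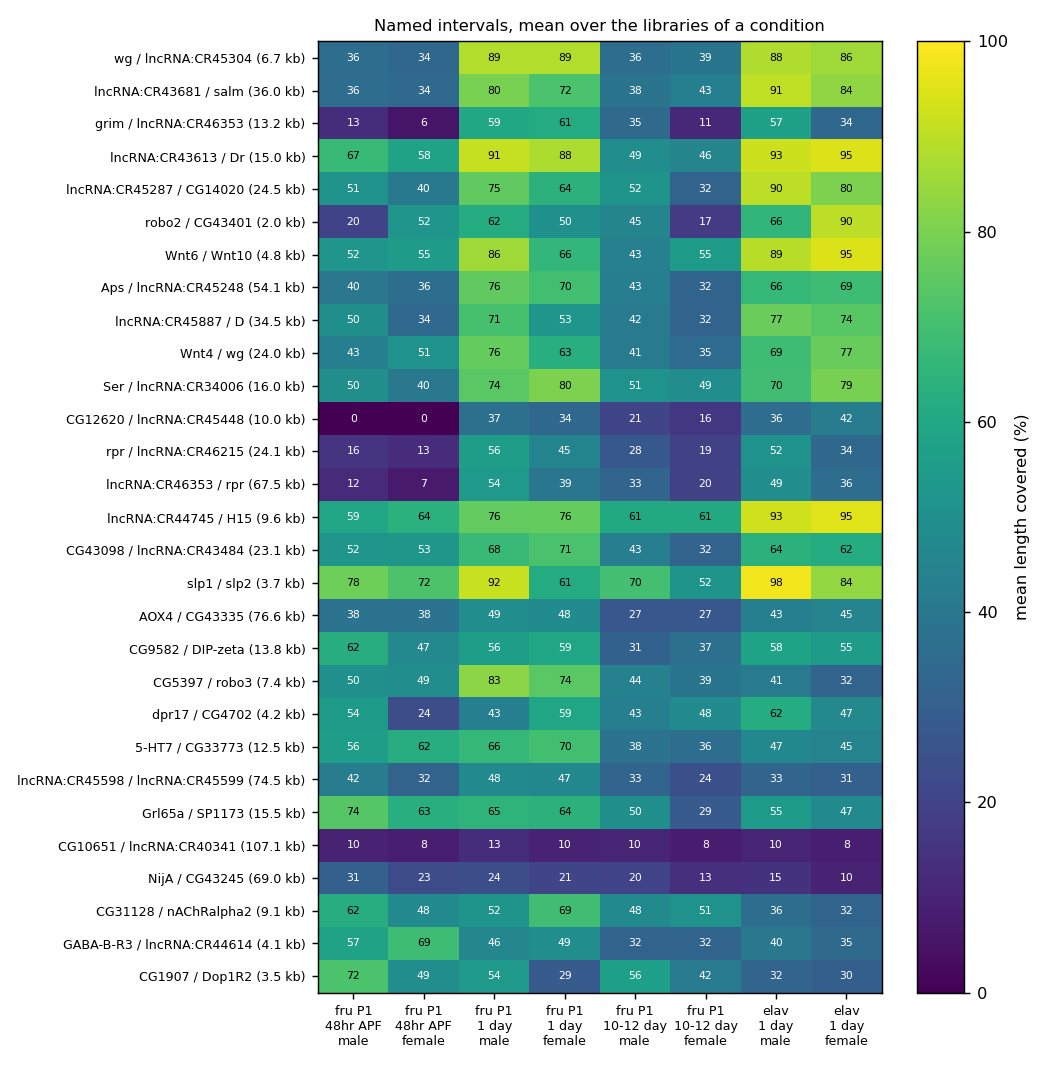
Mean percent of length covered (colour and number) for the far intergenic intervals named in the text (rows, with the flanking genes and length) in each of the 8 conditions (columns). Columns of 1 day are brightest in most rows, the row of *CG12620* and *CR45448* is at 0 at 48hr APF, and several rows, among them those of *GABA-B-R3*, *Dop1R2* and *NijA*, are not highest at 1 day among the *fru P1* columns.

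The 5 longest intervals differed widely in coverage. The longest, 107115 bp between *CG10651* and *CR40341* at chr2L:20137924-20245038, is 55.4% transposable elements and had a mean of 9.80%. The 76634 bp between *AOX4* and *CG43335* had 39.9%, the 74519 bp between *CR45598* and *CR45599* 36.5%, the 69047 bp between *NijA* and *CG43245* 19.8%, and the 67549 bp between *CR46353* and *rpr* 31.6%. Across the 747 intervals, Spearman's rho of mean coverage was 0.473 with GC content, −0.468 with the share of transposable elements and −0.0255 with length. These are descriptions over intervals that share all 31 libraries.

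The interval between *CR46353* and *rpr* belongs to the gene cluster of *grim* and *rpr*, activators of apoptosis whose distant enhancers control neuroblast and neuron death. At chr3L:18326986-18394534, coverage was 5.66%, 7.53%, 14.6% and 19.9% in males of 48hr APF, 35.8%, 49.2%, 62.4% and 68.0% at 1 day and 29.6%, 32.9%, 33.7% and 34.95% at 10–12 days. Females had 2.65%, 6.71%, 6.95% and 13.0%, then 35.4%, 36.9%, 41.2% and 43.7%, then 12.4%, 22.7% and 23.6%. In males no stage overlapped another, with 1 day highest and 48hr APF lowest, and in females only 1 library of 10–12 days, at 12.4%, lay within the range of 48hr APF. The *elav* libraries had 39.9% to 60.6% in males and 33.6% to 38.0% in females. The intervals on either side, *grim* to *CR46353* and *rpr* to *CR46215*, were looked at after these values were seen and had means of 5.75% to 15.6% at 48hr APF, 33.8% to 61.5% at 1 day and 11.1% to 34.5% at 10–12 days.

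No interval had a peak wholly inside in every 1-day library of one cell type while lacking one in all libraries of the other, and none did so for males against females or for 48hr APF against adult *fru P1* neurons. The reverse of the last held for 1 of 747 intervals, the 9958 bp between *CG12620* and *CR45448* (chr2L:17092187-17102144). It had a peak in all 15 adult *fru P1* libraries, and in the 8 *elav* libraries as well, and 0% of its length was covered in all 8 libraries of 48hr APF. Coverage was 21.2% to 53.7% in 1-day *fru P1* males, 11.5% to 43.9% in females, 13.2% to 30.02% and 7.56% to 30.5% at 10–12 days, and 20.8% to 49.6% in *elav* neurons. The interval holds no annotated transposable element and has a GC content of 38.4%, and its chosen window had 7 CG dinucleotides. It is 1 interval picked out of 747 by this very pattern, so the values describe it and are no test.

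Coverage was next compared in 2 kb bins along the arms, with limma and Benjamini-Hochberg adjustment over 34259 bins, of which 3178 lay wholly in far intergenic territory. From 48hr APF to 1 day, 1.89% of all bins passed in males, and 74 far intergenic bins (2.33%) did, 72 higher and 2 lower at 1 day. In females 1.87% of all bins passed, and 85 far intergenic bins (2.67%), 83 higher and 2 lower. From 1 day to 10–12 days, 1.24% of all bins passed in males and 1.04% in females, with 52 (1.64%) and 32 (1.01%) far intergenic bins, all lower at 10–12 days. Over all bins the directions were more mixed. From 48hr APF to 1 day, 509 bins were higher and 138 lower at 1 day in males, and 510 and 132 in females. From 1 day to 10–12 days, 193 were higher and 233 lower at 10–12 days in males, and 197 and 160 in females. At this bin size the far intergenic shares, counted in either direction, were near those of all bins. They moved apart at another size: with 5 kb bins, 14.1% of far intergenic and 8.87% of all bins passed from 48hr APF to 1 day in males and 18.3% and 9.82% in females, and from 1 day to 10–12 days 10.6% and 6.24% in males and 11.4% and 6.14% in females. With 1 kb bins, 0.0713% of far intergenic and 0.326% of all bins passed in females from 1 day to 10–12 days. The difference between the shares was not tested.

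Between 48hr APF and 10–12 days, 0.417% of bins passed in males, 5 of them far intergenic (2 higher, 3 lower), and 0.19% in females, 0 of them far intergenic, where 273 far intergenic bins had an unadjusted p under 0.05. Males and females differed in 0.0117% of bins at 48hr APF, 0% at 1 day, 0.0701% at 10–12 days and 0% in *elav* neurons. The *elav* and *fru P1* libraries differed in 0.00876% of bins in males and 0.00876% in females. None of the bins of these 6 comparisons was far intergenic in the limma fit, with 166 to 404 far intergenic bins at an unadjusted p under 0.05 in each. The limma fit took its spread from all 31 libraries. With only the libraries of the conditions compared, the far intergenic calls of 48hr APF against 1 day went from 74 to 0 in males and from 85 to 21 in females, and those of 1 day against 10–12 days from 52 and 32 to 0 and 0, while the 5 of 48hr APF against 10–12 day males went to 0, so single bins are far less certain than the totals above. Leaving out any 1 of the libraries compared also lowered the calls in these 4 comparisons. The share of far intergenic bins from 48hr APF to 1 day went from 2.33% to between 0.378% and 1.51% in males and from 2.67% to between 0.535% and 1.86% in females. From 1 day to 10–12 days it went from 1.64% to between 0.0315%, without *fru P1* 1-day male replicate 1, and 1.42% in males, and from 1.01% to between 0.126% and 0.629% in females. For 10–12 day against 48hr APF males it was 0.0315% without 48hr APF male replicate 1, 0.0944% without any of the other 3 males of 48hr APF and at least 0.157% otherwise.

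The bins with the smallest adjusted p were mostly all or nothing. In the 4 males of 1 day, the bin at chr2L:15456001-15458000 between *CR44862* and *CR44863* was wholly covered, against 2.70% to 24.0% at 48hr APF (limma, adjusted p = 0.00982). The bin at chr3R:13920001-13922000 beside *ems*, a homeobox gene of the head and brain, was covered to 77.4%, 100%, 100% and 100% at 1 day and to 0%, 0%, 0% and 3.15% at 48hr APF (limma, adjusted p = 0.0106). From 1 day to 10–12 days, the bin at chr3L:4012001-4014000 between *CG14985* and *FoxL1*, a forkhead gene, went from 100% in all 4 males to 0% in all 4 (limma, adjusted p = 0.00831). In 48hr APF males the same bin ranged from 0% to 100%. The bin at chr3L:20658001-20660000 beside *kni*, a gap gene, was wholly covered in the 4 males of 1 day and to 0%, 0%, 21.9% and 24.1% at 10–12 days (limma, adjusted p = 0.0143).

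In females, the bin at chr3L:10714001-10716000 between *NijA* and *CG43245* had 96.2%, 98.3%, 100% and 100% at 1 day and 0% in all 4 libraries of 48hr APF (limma, adjusted p = 0.0103). In 1-day males it had 15.4% to 64% and in *elav* neurons 0% to 92.7%. The bin at chr3L:18316001-18318000 beside *grim* had 82.3%, 87.1%, 100% and 100% in 1-day females, 0%, 0%, 0% and 4.95% at 48hr APF and 0%, 2.35% and 20.8% at 10–12 days (limma, adjusted p = 0.0103 and 0.0145). The bin at chr2L:15404001-15406000 between *CR45374* and *CG44869* fell from 76.8% to 100% at 1 day to 0%, 0% and 7.40% at 10–12 days in females (limma, adjusted p = 0.0133). Between 10–12 day and 48hr APF males, 1 bin beside *side-VI*, a gene of the Sidestep immunoglobulin family (chr3R:11072001-11074000), had 49.1% to 100% against 0% in all 4 (limma, adjusted p = 0.0167), and another between *CG13970* and *CG10651* (chr2L:20120001-20122000), had 0% to 5.50% against 41.7% to 100% (limma, adjusted p = 0.0317).

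Several called bins lay in the same interval. In females, 6 bins that were higher at 1 day than at 48hr APF lay between *CG15258* and *CR44859*. There were 3 each beside *esg*, a Snail-family zinc-finger gene, beside the Toll receptor genes *Tollo* and *Toll-6*, and between *CG15136* and *CR43819*. In males, 3 each lay beside *salm*, between *CR46353* and *rpr*, and between *CG15136* and *CR43819*. The other intervals with 3 in males were *CR44971* to *ACXC*, *CR45899* to *CR44933* and *CR44955* to *CR45576*. These counts are not set against the number of bins in an interval, and long intervals, such as the 67549 bp between *CR46353* and *rpr*, hold more bins. Of the 74 far intergenic bins called in males and the 85 in females from 48hr APF to 1 day, 10 were shared (13.5% and 11.8%). The overlap over all called bins was not counted, so whether this is few or many cannot be told. A test of the sex difference in the change from 48hr APF to 1 day called 0 far intergenic bins (limma interaction, with 169 at an unadjusted p under 0.05). Bins called in one sex alone are therefore not shown to differ between the sexes.

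The stage difference was spread over most intervals rather than held by few. From 48hr APF to 1 day, mean coverage was higher in 553 of 747 intervals and lower in 170 in males, with a median difference of 11.8 points, and higher in 574 and lower in 148 in females, with a median of 14.5 points. From 1 day to 10–12 days it was lower in 655 and 665 intervals and higher in 68 and 55. Both pairs of comparisons share the 1-day libraries. The *elav* libraries were below 1-day *fru P1* libraries in 519 intervals in males and 518 in females, with 203 higher in each.

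Base composition went with coverage. Far intergenic territory had a GC content of 41.4% and the rest of the arms 42.7%. Across windows of 300 bases outside transposable elements, mean GC content was 36.6% where fewer than 8 libraries had a peak on average (4180 windows), 41.4% for 8 to 16 (12632), 43.98% for 16 to 24 (7868) and 45.4% for 24 or more (707), with SDs of 5.75 to 6.69 points. The number of CG dinucleotides per window, searched on the printed strand, which reads the same on the other, was 8.997, 11.3, 12.8 and 13.9, against 11.4 over all 25838 windows, of which 99.95% hold at least 1. The motif GAGAG or its reverse complement was in 24.4%, 29.3%, 29.4% and 32.3% of these windows and in 28.7% of all. GCCAT, on either strand, was in 44.5%, 53.7%, 57.9% and 55.6%, and in 53.5% of all, and a run of AAAAAAAA on either strand in 20.5%, 15.5%, 14.0% and 13.0%, and in 15.8% of all. The order of CG over the 4 classes is that of GC content, and no motif was tested.

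**Figure D5:**
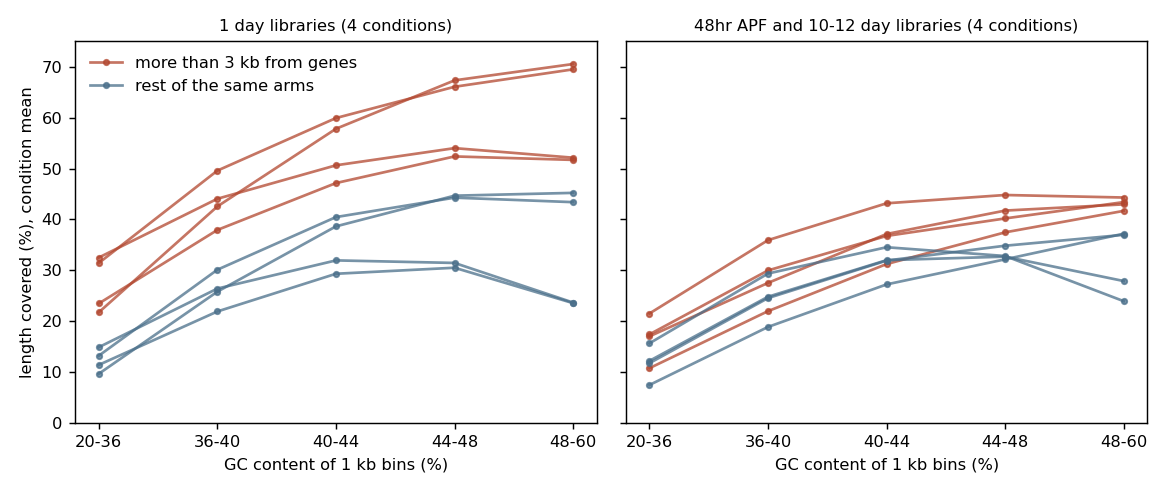
Mean percent of length covered (vertical axis) in 1 kb bins without transposable elements, grouped by GC content (horizontal axis, %), for 1-day conditions (left) and for 48hr APF and 10–12 day conditions (right), with 1 line per condition for far intergenic bins (red) and bins in the rest of the arms (blue). In the left panel red lines lie above the blue line of the same condition at every GC content, and coverage of far intergenic bins rises with GC content up to the class of 44% to 48%.

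Ground without any peak was of different kinds. Of the 451 windows outside elements with no library over them, 84 had all of their 50-base words once in the assembly, and the mean over the 451 was 40.7% of words. The longest stretch without a peak, 17330 bp, lay between *CG17650* and the gustatory receptor gene *Gr22e*, where 47.6% of words occur once. The 84 windows had a mean GC content of 30.2%, lower than any class above. The window between *NijA* and *CG43245* printed above is an exception among them, with a GC content of 50.3% and 21 CG dinucleotides, and it lies in the longest run of such windows, 5 windows at chr3L:10738578-10740077.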

How the data were processed

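Broad H3K9me3 peaks were taken from 31 lists, 1 per library, grouped by the labels. Per the labels' processing notes, the authors used Trimmomatic on the reads, Bowtie2 2.2.5 for alignment to dm6, SAMtools 1.2, deepTools and MACS2 2.1.0. The headers of the lists name another MACS2 release and give a p cutoff of 0.01 with a broad cutoff of 0.1, against an input pooled over replicates for *fru P1* and the input of the same replicate for *elav*. The deposited pileup is a signal, the number of fragments over a peak, not scaled to depth. The deposited significance columns are −log10 p and −log10 q from a test against the local background, and the deposited fold enrichment is a ratio, pileup over that background.

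Positions were read as counted from 1, on BDGP6.54 (dm6 coordinates) with Ensembl release 115 genes, and sequences come from the RefSeq copy of the same assembly. Per library, the number of peaks wholly inside far intergenic territory, their median width and the covered length of the territory were computed. Members, lists and rules were chosen with earlier results of these data known. The named intervals, all of at least 2 kb, are the 8 with a peak wholly inside in the most libraries, the 5 longest, those with such peaks in every library of one condition set and none of the other, the 2 bins of smallest adjusted p per contrast and up to 4 genes per list. Conditions were compared by exact permutation of libraries, two-sided (scipy 1.17.1), with p-values adjusted by the Benjamini-Hochberg method over the 12 comparisons of a measure. Sign-flip tests used 100000 resamples and treated libraries as independent, although the *fru P1* libraries of a condition share an input. Bins of 2 kb with a peak in at least 3 libraries were tested with limma 3.58.1 in R 4.3.3. The procedures were first tested on simulated data. Alternatives were distances of 1 and 5 kb, protein-coding genes only, peaks of p of 0.05 or less, peak midpoints, a replicate block, other bins and each library left out. Replicates are labelled as separate samples of one condition, and p-values measure the spread between them. The *fru P1* libraries of a condition share a pooled input, so variation of the input is not part of that spread. Comparisons of stage or sex in *fru P1* neurons are also comparisons of different pooled inputs. The part of the input in them was not tested. Tags after filtering ran from 2119672 to 6306013 per library. Replicate 2 of 10–12 day females, pooled lists and other modifications were not analysed here.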

Additional observations from a re-analysis of the deposited data

How the results depend on the processing

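Covered length kept its direction under every alternative run, and the 7 comparisons that passed did so at 1 kb and 5 kb, with protein-coding genes only and with peaks of p of 0.05 or less. By absolute difference, the 3 comparisons with 10–12 day females also passed (5.14, −22.4 and −5.09 points), as did the widths of females at 10–12 days against 1 day (−323 bp) and 48hr APF (−75.5 bp). Leaving out 1 library at a time changed no direction of covered length or of a width that passed. It turned the sign of 3 uncalled values, the number in females from 1 day to 10–12 days (−2 without 10–12 day replicate 1, up to 58.5), the number in *elav* against *fru P1* males (−7.08 without *elav* replicate 3, up to 280) and the width between the sexes in *elav* neurons (−69.75 to 103.75 bp), and of 3 of the differences between far intergenic territory and the rest (−0.398, −0.0864 and −0.553 points at the lowest). At 5 kb from genes the 7 width differences were 47.0, 301.5, −378, −76.1, 268.5, −338 and −237 bp and no longer passed. The width difference between the sexes in *elav* neurons, −1.50 bp, became 3.38 bp with protein-coding genes only, 33.9 bp with peaks of p of 0.05 or less and 24.3 bp with peak midpoints. Numbers reversed with peaks of p of 0.05 or less in males (121.5 from 48hr APF to 1 day, −124 from 1 day to 10–12 days, −2.25 from 48hr APF to 10–12 days) and in females (−321 from 1 day and −26.2 from 48hr APF to 10–12 days), and in females from 1 day to 10–12 days at 1 kb (−18.7) and with midpoints (−153). The difference between far intergenic territory and the rest, compared between conditions, reversed for the sexes in *elav* neurons as a log2 ratio (−0.0061), and for *elav* minus *fru P1* in males with peaks of p of 0.05 or less (−0.334 points) or matched GC content (−0.710) and in females with matched GC content (−0.922). The causes were not tested.

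The share of far intergenic bins called moved most, and the share over all bins is given after it in parentheses. For males and females from 48hr APF to 1 day, it was 0.385% (0.288%) and 0% (0%) with 1 kb bins, 14.1% (8.87%) and 18.3% (9.82%) with 5 kb bins, and 1.16% (1.02%) and 1.16% (0.753%) with coverage taken as 0 or 1. From 1 day to 10–12 days it was 0.185% (0.211%) and 0.0713% (0.326%) with 1 kb bins, 10.6% (6.24%) and 11.4% (6.14%) with 5 kb bins, and 0.378% (0.3999%) in females as 0 or 1. From 48hr APF to 10–12 days it was 0.0571% (0.2097%) and 0.0143% (0.189%) with 1 kb bins, 0.733% (0.953%) in males with 5 kb bins and 0.0629% (0.225%) in females as 0 or 1. For *elav* against *fru P1*, it was 0.209% (0.337%) in males and 1.36% (1.297%) in females with 5 kb bins, 0.0629% (0.117%) and 0.0629% (0.0642%) as 0 or 1, and 0.0313% (0.0145%) in males with bins covered in at least 1 library. The sexes differed in 0.105% (0.0215%) at 48hr APF with 5 kb bins, and in 0.0315% (0.108%) at 48hr APF and 0.0944% (0.283%) at 10–12 days as 0 or 1. With the 2 conditions compared alone it was 0.661% (0.435%) for females from 48hr APF to 1 day and 0% (0% to 0.0496%) in every other comparison. Leaving out 1 library gave 0.378% to 1.51% and 0.535% to 1.86% from 48hr APF to 1 day in males and females, 0.0315% to 1.42% and 0.126% to 0.629% from 1 day to 10–12 days, 0.0315% to 0.189% and 0% to 0.0629% from 48hr APF to 10–12 days, and 0% to 0.0315% between the sexes at 48hr APF.

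Replicate numbers did not pair the libraries: over far intergenic bins, 45 same-numbered pairs had correlations of −0.0717 to 0.0374, none over 0.1. Over the 3 library totals (number, covered length and width), correlations over 3 or 4 pairs ranged from −0.990 to 0.999 with no common sign. For 3 of the 4 *fru P1* females of 1 day, the list names carry other numbers than the sample titles, which were used, and this touches 11 of the 45 pairs and the block. With the replicate block, 0% of far intergenic bins passed in any comparison, and covered length in males was 15.0 points higher at 1 day than at 48hr APF (exact sign-flip permutation test, p = 0.125, the smallest that 4 pairs allow).

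Limits: peaks are shallow, lists rest on 2119672 to 6306013 tags, the *elav* libraries are shallower, 3 libraries of 10–12 day females limit the tests, and repeats hold few uniquely placed reads. Each *fru P1* condition also has its own pooled input, which its libraries share.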
